A study of Mus musculus with 39 samples.

Results

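Blood and lymphatic endothelial genes were followed in PB2 mouse breast tumors. The list held 35 genes that mark the cells lining blood or lymph vessels, taken by gene symbol with case ignored, and all 35 were found among the 20520 genes of the deposited table. Each of the 35 passed the filter on low values, which asked for a level of at least 1 CPM (reads per 1000000 reads of the library) in at least 9 libraries and left 13650 genes to test. The tumors were grafts that carried full-length HER2 (FL-HER2) or p95HER2, a truncated form of the receptor, and were collected 10 or 22 days after implantation. RNA sequencing gave 10 day 10 and 9 day 22 libraries for FL-HER2, and 10 libraries for p95HER2 on each day. All 4 groups were PB2 tumors that carried one of the constructs, so no group without a HER2 construct enters any comparison. The strain, sex and age of the hosts, the site of the graft and whether a construct line was 1 clone are not stated in the labels. Each library is named for a numbered tumor, but the labels do not say whether the tumors grew in separate animals, so the p-values speak to the spread among these libraries, part of which may be technical.

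Endothelial cells line every vessel and are recognised by junction proteins such as VE-cadherin (Cdh5) and PECAM-1 (Pecam1), by surface sialomucins and lectins, and by transcription factors of the ETS and SOX families. In a growing vessel bed, tip cells lead each sprout and make apelin (Apln) and endocan (Esm1), whereas capillary cells carry the diaphragm protein PLVAP and the lipase carrier GPIHBP1. Lymphatic vessels are set apart by the transcription factor PROX1, the hyaluronan receptor LYVE1 and podoplanin (Pdpn), of which LYVE1 is also made by some macrophages and podoplanin by fibroblasts and some tumor cells. The tumor is a mixed tissue, and in such bulk RNA fewer cells of a type and less RNA per cell cannot be told apart.

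The whole reads behind the deposited values came to 21772259 to 44427621 per library, so that 1 CPM stood for at least 21.8 reads. The lowest value of any of the 35 genes in a library was 0.422 CPM (Clec14a), and none was at 0. Tumor epithelium genes were present in every library (0.185% to 0.293% of the reads). A list of 20 skeletal muscle genes took 0.0495% to 3.88% of the reads in FL-HER2 at day 10, 0.00399% to 1.06% in p95HER2 at day 10, 0.0253% to 0.940% in FL-HER2 at day 22 and 0.00156% to 0.607% in p95HER2 at day 22. In 10 libraries the tested genes of a skin list had a mean log2 value of 6 or more (2 of FL-HER2 and 4 of p95HER2 at day 10, 1 and 3 at day 22), and these are called skin-high. Library names carry a number, which in the data columns is 5 digits long for 8 of the 10 libraries of FL-HER2 at day 10 and 3 digits long elsewhere. For 1 of the 8, replicate 8, the title gives 4 of these digits, and the labels do not say what this marks.

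Per kilobase of exon, Plvap had the highest mean level of the 35 genes over all libraries, 33.8 CPM per kb. Apln followed with 14.9 CPM per kb, and podoplanin, endoglin (Eng), Erg and Cdh5 lay close together at 10.7, 10.6, 9.97 and 9.45 CPM per kb. The lowest were Prox1 at 0.182, Sox17 at 0.318, Clec14a at 0.617 and Sox7 at 0.630 CPM per kb. On this scale the lymphatic markers lay far apart, from Prox1, the lowest of all 35, over Lyve1 at 0.963 CPM per kb to Pdpn near the top.

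The promoter windows of 4 genes are shown, chosen after their values were seen because they frame the comparisons: Clec14a, which fell most between constructs at day 10, Eng, which fell in the same comparison, and the tip-cell genes Esm1 and Apln. Each runs 5′ to 3′ on the strand of the gene, from 250 bases before to 50 bases after the RefSeq start in build GRCm38.p6, and capitals mark AGGAAG or its reverse complement CTTCCT, a form of the GGAA core that ETS factors such as ERG bind. The Clec14a window lies on the minus strand at chr12:58269209-58269508, the Eng window on the plus strand at chr2:32646345-32646644, the Esm1 window on the plus strand at chr13:113209409-113209708 and the Apln window on the minus strand at chrX:48034804-48035103.
Clec14a: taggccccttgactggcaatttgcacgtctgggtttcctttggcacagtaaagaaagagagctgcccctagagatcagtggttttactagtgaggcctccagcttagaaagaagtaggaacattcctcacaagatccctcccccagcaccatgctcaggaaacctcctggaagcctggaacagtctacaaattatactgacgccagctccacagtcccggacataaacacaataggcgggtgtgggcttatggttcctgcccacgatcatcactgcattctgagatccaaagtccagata
Eng: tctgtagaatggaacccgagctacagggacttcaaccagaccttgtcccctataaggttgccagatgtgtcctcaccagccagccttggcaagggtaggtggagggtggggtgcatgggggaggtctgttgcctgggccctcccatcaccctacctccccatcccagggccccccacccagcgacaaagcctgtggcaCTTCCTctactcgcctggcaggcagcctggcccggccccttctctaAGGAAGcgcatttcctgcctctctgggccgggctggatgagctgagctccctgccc
Esm1: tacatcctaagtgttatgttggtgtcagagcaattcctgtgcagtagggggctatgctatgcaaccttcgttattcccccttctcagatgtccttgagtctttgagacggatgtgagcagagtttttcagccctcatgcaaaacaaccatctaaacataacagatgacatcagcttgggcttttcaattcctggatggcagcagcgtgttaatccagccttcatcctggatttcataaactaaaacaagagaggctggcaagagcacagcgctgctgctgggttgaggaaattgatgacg
Apln: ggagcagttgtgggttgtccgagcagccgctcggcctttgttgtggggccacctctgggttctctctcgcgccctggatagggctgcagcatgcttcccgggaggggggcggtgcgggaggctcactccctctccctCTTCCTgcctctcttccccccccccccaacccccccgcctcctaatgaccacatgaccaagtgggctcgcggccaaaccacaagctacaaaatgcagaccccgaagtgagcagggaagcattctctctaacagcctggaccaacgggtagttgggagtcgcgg

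The Eng window held 2 matches and the Apln window 1, whereas those of Clec14a and Esm1 held 0. Windows were at hand for 16 of the 35 genes (21 windows, since some genes have several starts), and 11 of these 21 (52.4%) held AGGAAG on either strand, against 35.4% of all 32851 windows of 300 bases. The shorter core GGAA was in 95.2% of the members' windows and 96.0% of all windows. The other 7 motifs, also chosen after the values were seen, were searched on both strands, and some overlap AGGAAG. The extended core CAGGAA was found in 61.9% of the members' windows, against 30.6% of all windows. For the longer form AGGAAGT the shares were 19.0% of the members' windows and 9.35% of all windows. Another extended core, CCGGAA, was in 9.52% of the members' windows and 14.9% of all. The SOX-type core ACAAT was in 33.3% of the members' windows and 31.0% of all. The core that GATA factors bind, GATAA, was in 19.0% of the members' windows and 25.4% of all. The longer of the remaining motifs, CGCGTG, was in 4.76% of the members' windows and 9.27% of all. The hypoxia-type core ACGTG, which is the last one, was in 23.8% of the members' windows and 19.6% of all. A match is a description of the letters in the window, and windows of 1 gene can share bases.

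The first comparison asked how the constructs differed 10 days after implantation, when most endothelial genes were lower in p95HER2. Of the 35 genes 23 were lower and 1, Erg, was higher at an adjusted p under 0.05 (limma on the deposited log2 values, Benjamini-Hochberg adjustment over all 13650 genes), and 11 did not pass. Over all genes tested 26.1% were lower and 15.2% higher. The median log2 change of the 35 was -0.53, against -0.04 over all genes. At day 22, 1 gene was higher (Emcn) and 0 lower by limma, with 10 higher and 0 lower at an unadjusted p under 0.05, 1 and 0 when limma-voom was run on the recovered reads, and a median of 0.23, where 2.98% of all genes were higher and 1.54% lower. A test that did not pass does not show equal levels, and the 95% intervals at day 22 were, for example, 0.06 to 0.65 for Cdh5 and 0.07 to 1.20 for Aplnr.

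With time, the genes moved differently in the 2 constructs. In FL-HER2, 27 of the 35 were lower at day 22 than at day 10, 2 (Esm1 and Ecscr) were higher and 6 did not pass, with a median of -0.56 beside 30.6% lower and 20.7% higher over all genes. In p95HER2, 6 rose (Esm1, Ptprb, Adgrl4, Ecscr, Myct1 and Calcrl), 4 fell (Cldn5, Erg, Pdpn and Apln) and 25 did not pass, with a median of 0.20 beside 18.6% lower and 16.6% higher over all genes. On the log2(CPM + 1) scale and with voom on the recovered reads the split was 12 higher and 3 lower. The difference between constructs itself changed between days in 25 genes, upward in 24 and downward in Erg, with a median of 0.81 where 13.5% of all genes changed upward and 6.20% downward. Comparisons that share a group are not independent, and FL-HER2 at day 10 enters 3 of these 5.

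The summed level of the 35 genes ran from 484 to 830 CPM in FL-HER2 at day 10 (median 665), from 411 to 759 in p95HER2 at day 10 (median 480), from 366 to 611 in FL-HER2 at day 22 (median 498) and from 451 to 746 in p95HER2 at day 22 (median 567). The groups overlapped in this sum, and FL-HER2 at day 10 had the highest median. Within it, replicates 7 and 9, the 2 with 3-digit names, had the lowest sums, 572 and 484 CPM, and the 8 with 5 digits had 642 to 830 CPM. Of the 35 genes 32 had a higher mean log2 value in the 8 than in the 2, with a median difference of 0.36. Against those 2 libraries alone, p95HER2 at day 10 was lower in 25 of the 35, with a median of -0.22. Neither count was taken over all genes, so neither is read as particular to the endothelial genes. With a term for name length added to the fit, so that only the 2 libraries set the FL-HER2 level of day 10, limma called 2 members between constructs at day 10 (Erg higher, Lyl1 lower), 5 with time in FL-HER2 (Cldn5, Icam2, Prox1 and Pdpn lower, Esm1 higher) and 0 for the change of the construct effect (11 at an unadjusted p under 0.05). Beyond those 2 libraries, the number of digits and the group cannot be told apart. The shares over all genes given above belong to the main fit and not to the fit with the term for name length. The lower counts are therefore not read as particular to the endothelial genes. One library of p95HER2 at day 10, replicate 10, summed to 759 CPM where the other 9 had 411 to 583. This library was the highest of its group in 24 of the 35 genes, a count that was not taken over all genes. Without replicate 10, 18 members passed with time in p95HER2, 16 higher and 2 lower, in place of 6 and 4. The share over all genes is not given for that fit, so the higher count is not read as particular to the endothelial genes either.

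**Figure D1:**
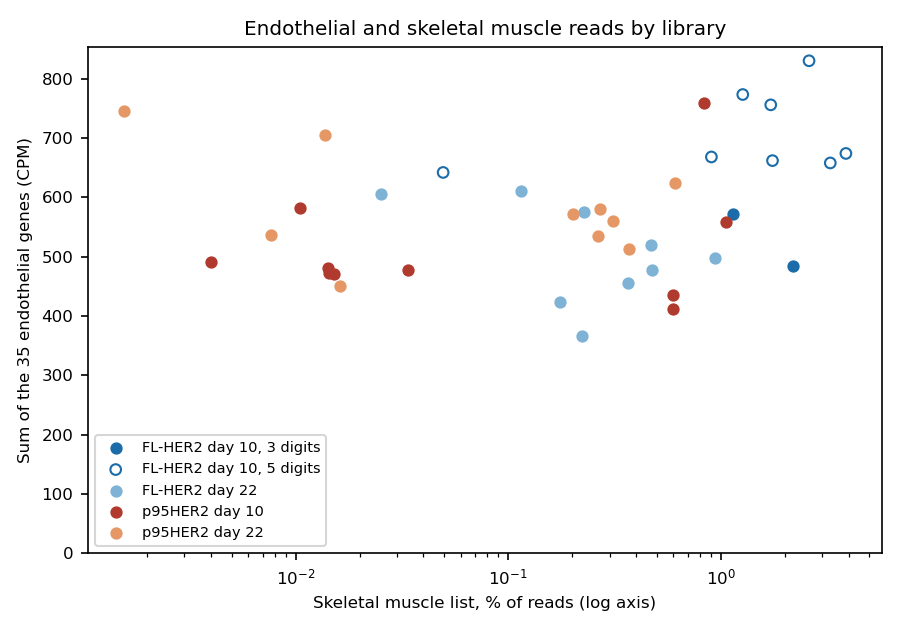
Summed level of the 35 endothelial genes in CPM (vertical axis) against the percent of reads in the skeletal muscle list (horizontal log axis), 1 point per library, colored by group, with open circles for FL-HER2 day 10 libraries with 5-digit names. The 8 open circles sit between 642 and 830 CPM, and the filled FL-HER2 day 10 points, at 572 and 484 CPM, lie among the other groups.

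Other cell types moved beside the endothelial genes. Between constructs at day 10, 20 of 20 muscle genes were lower in p95HER2 (median -4.36), and 7 of 13 pericyte genes, 11 of 13 fibroblast genes and 13 of 14 macrophage genes were lower with 0 higher (medians -0.51, -1.48 and -0.74). With time in FL-HER2, 8 of 20 muscle genes, 12 of 13 pericyte genes, 12 of 13 fibroblast genes and 8 of 14 macrophage genes fell and 0 rose. Their medians with time were -2.67, -1.13, -2.16 and -0.60. Over all genes, 26.1% were lower and 15.2% higher between constructs at day 10, and 30.6% lower and 20.7% higher with time in FL-HER2. Pericyte genes took 0.0670% to 0.176% of the reads in FL-HER2 at day 10, 0.0465% to 0.0979% in p95HER2 at day 10, 0.0369% to 0.0610% in FL-HER2 at day 22 and 0.0393% to 0.0623% in p95HER2 at day 22. Fibroblast genes took 0.919% to 2.72%, 0.531% to 1.22%, 0.139% to 0.399% and 0.185% to 0.357% in the same order of groups, and macrophage genes 0.0753% to 0.113%, 0.0417% to 0.0908%, 0.0658% to 0.104% and 0.0479% to 0.1004%. Of the blood cell lists, 3 of 6 leukocyte genes were lower and 1 higher in p95HER2 at day 10 (median -0.75), with 1 of 2 platelet genes and the 1 erythroid gene lower (medians -0.48 and -1.31). Leukocyte genes took 0.00863% to 0.0136% of the reads in FL-HER2 and 0.00473% to 0.0142% in p95HER2 at day 10, and 0.00851% to 0.0130% and 0.00509% to 0.0142% at day 22. Of the platelet genes Gp6 was at 0 in all day 10 libraries. Tumor epithelium genes fell with time in 5 of 8 cases in FL-HER2 (0 higher, median -0.77) and in 5 of 8 in p95HER2 (1 higher, median -0.77). Of all genes, 18.6% fell and 16.6% rose with time in p95HER2. The part of these cell types in the endothelial result was not tested. With the muscle level of each library as a covariate, 22 members passed between constructs at day 10 (21 lower) and 27 with time in FL-HER2 (25 lower). Only 3 FL-HER2 and 4 p95HER2 libraries at day 10 had between 0.1% and 1.3% muscle reads, and in a fit of such libraries 0 members passed between constructs at day 10 (14 at an unadjusted p under 0.05, 13 of them lower) and 15 with time in FL-HER2. Of the 12 skin genes Krt2 was at 0 in every FL-HER2 day 22 library, and no muscle, pericyte, fibroblast or macrophage gene was at 0 throughout a group. Without the 10 skin-high libraries 22 members passed between constructs at day 10 and 31 with time in FL-HER2, but 0 between constructs at day 22 (19 at an unadjusted p under 0.05, all higher) and 4 with time in p95HER2.

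**Figure D2:**
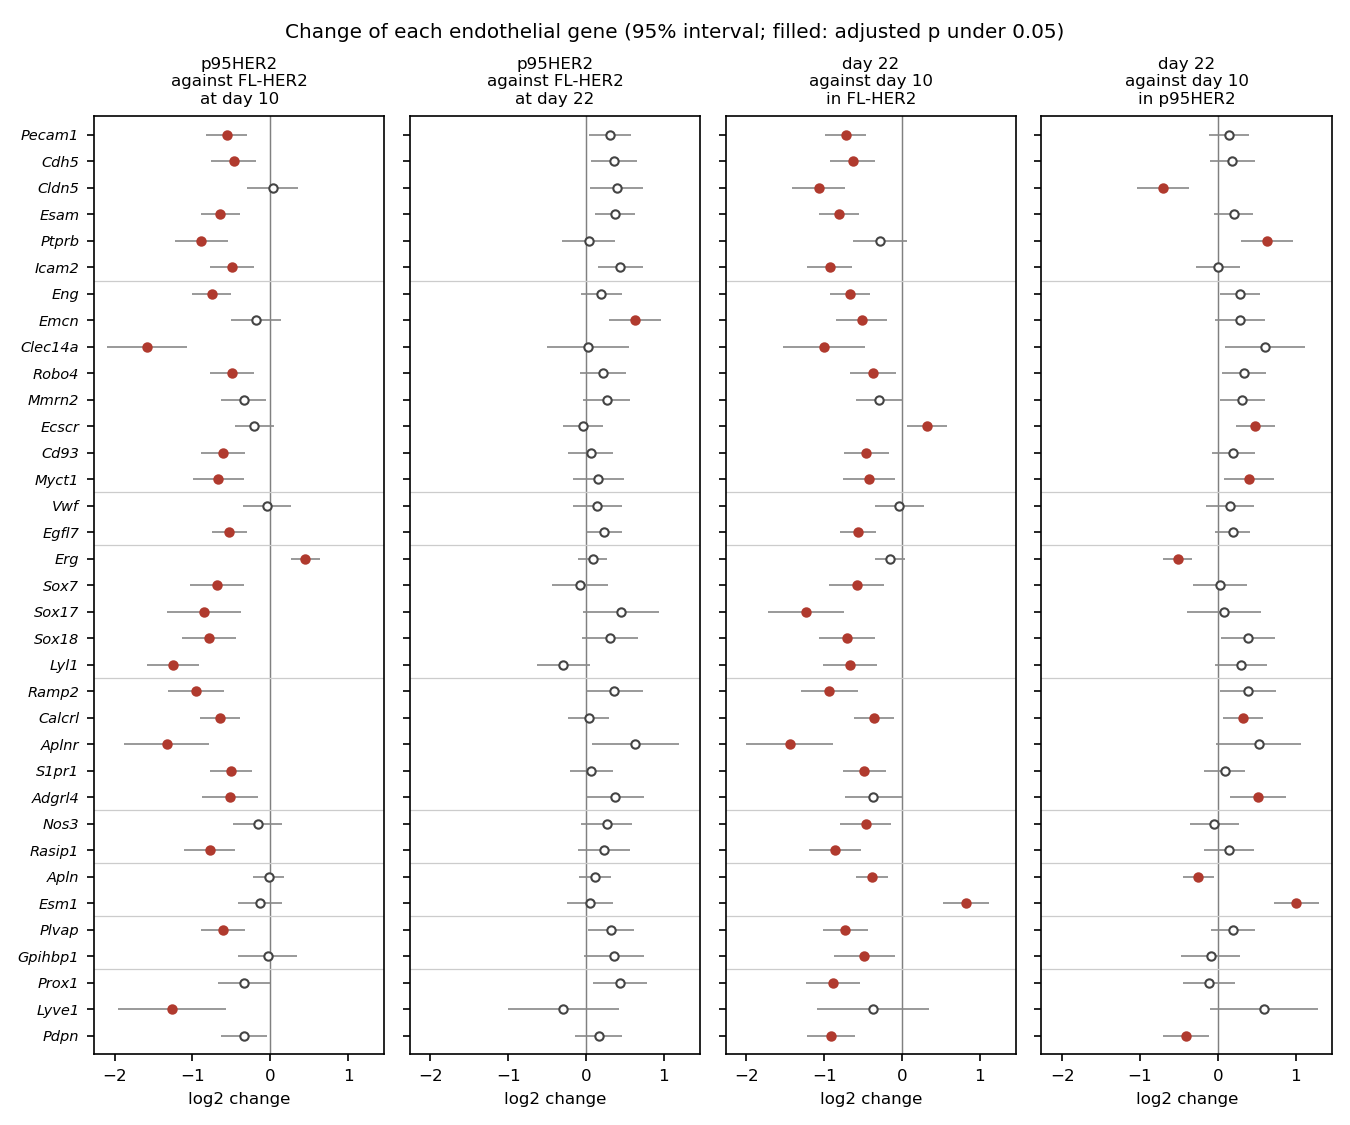
Log2 change of each of the 35 genes (1 line each, ordered by role from junction proteins at the top to lymphatic genes at the bottom) in 4 comparisons, as a point with its 95% interval from limma, filled red at an adjusted p under 0.05. Red points lie left of 0 for 23 genes between constructs at day 10 and for 27 with time in FL-HER2, against 0 between constructs at day 22 and 4 with time in p95HER2.

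Among the junction proteins, 5 of 6 were lower in p95HER2 at day 10 and 5 of 6 fell with time in FL-HER2. Cdh5, the adhesion molecule of endothelial junctions (chr8:104101625-104144511 on the plus strand of GRCm38), read 31.7 to 61.8 CPM (median 45.5) in FL-HER2 at day 10 and 22.5 to 54.1 CPM (median 34.5) in p95HER2. At day 22 it read 19.0 to 48.0 CPM (median 34.9) in FL-HER2 and 30.5 to 54.4 CPM (median 40.3) in p95HER2. The groups overlapped throughout, and FL-HER2 at day 10 had the highest median. The Cdh5 change was -0.47 ± 0.14 (SE, adjusted p = 0.00758) between constructs at day 10 and -0.63 ± 0.15 (SE, adjusted p = 0.000397) with time in FL-HER2. With the term for name length these were -0.047 (adjusted p = 0.928) and -0.21 (adjusted p = 0.568). Pecam1, which joins neighboring endothelial cells and is also carried by platelets and leukocytes, read 38.5 to 68.4 CPM (median 54.3) in FL-HER2 and 29.2 to 59.6 CPM (median 35.6) in p95HER2 at day 10. Its day 22 values were 23.9 to 48.8 CPM (median 38.3) and 32.9 to 57.3 CPM (median 42.3) in the same order. It fell by 0.56 ± 0.13 on the log2 scale between constructs at day 10 (adjusted p = 0.000603) and by 0.72 ± 0.13 with time in FL-HER2 (adjusted p = 1.86e-05). These groups overlapped as well, and with the term for name length the changes were -0.19 (adjusted p = 0.634) and -0.35 (adjusted p = 0.254).

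Cldn5, the claudin of endothelial tight junctions, was the 1 junction gene that did not pass between constructs at day 10 and that fell with time in both. It read 2.71 to 5.72 CPM (median 4.19) in FL-HER2 and 2.43 to 5.98 CPM (median 4.92) in p95HER2 at day 10, and 1.26 to 3.49 CPM (median 1.99) and 2.13 to 4.11 CPM (median 2.54) at day 22. Both day 22 groups had lower medians than both day 10 groups, with some overlap. Cldn5 fell with time in FL-HER2, by 1.07 ± 0.17 (adjusted p = 1.80e-06), and in p95HER2, by 0.71 ± 0.16 (adjusted p = 0.000725), while the constructs differed by 0.03 with a 95% interval of -0.30 to 0.36 at day 10. Without the skin-high libraries the p95HER2 change of Cldn5 no longer passed (-0.53, adjusted p = 0.0667). Icam2, an adhesion molecule of resting endothelium, read 3.62 to 6.97 CPM (median 4.51) in FL-HER2 at day 10 and 2.27 to 3.49 CPM (median 2.59) at day 22, without overlap. In p95HER2 it read 2.15 to 5.75 CPM (median 3.51) and 2.70 to 5.08 CPM (median 3.68), with medians close together. The Icam2 change with time was -0.93 ± 0.14 (SE, adjusted p = 1.26e-06) in FL-HER2 and 0.00 ± 0.14 (SE, adjusted p = 0.995) in p95HER2. Esam, another junction adhesion molecule, read 13.8 to 22.8 CPM (median 20.05) and 9.23 to 22.0 CPM (median 11.7) in FL-HER2 and p95HER2 at day 10, and 8.98 to 15.3 CPM (median 12.3) and 11.9 to 19.3 CPM (median 15.0) at day 22. FL-HER2 lay higher at day 10 and lower at day 22, and the change of the construct difference, 1.01 ± 0.18 (SE, adjusted p = 0.000171), had the smallest adjusted p of the 35 genes. Ptprb, the phosphatase that acts on VE-cadherin and the angiopoietin receptor, rose with time in p95HER2 from a mean of 9.17 ± 2.81 to 14.7 ± 3.67 CPM (SD, n = 10 each), a change of 0.63 ± 0.17 (SE, adjusted p = 0.00246).

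Of the 8 surface and matrix genes, 5 were lower in p95HER2 at day 10. The largest fall of the 35 genes was that of Clec14a, an endothelial lectin (chr12:58264720-58269290, minus strand). It read 2.24 to 7.49 CPM (median 4.65) in FL-HER2 and 0.422 to 3.85 CPM (median 1.49) in p95HER2 at day 10, and 1.55 to 3.12 CPM (median 2.32) and 1.29 to 4.47 CPM (median 2.36) at day 22. FL-HER2 at day 10 stood above the other groups, with overlap. The Clec14a change was -1.58 ± 0.25 (SE, adjusted p = 5.69e-06) between constructs at day 10, -1.0005 ± 0.26 (SE, adjusted p = 0.00154) with time in FL-HER2 and 0.61 ± 0.25 (SE, adjusted p = 0.0592) with time in p95HER2. In the fit with the term for name length the first 2 of these were -0.84 (adjusted p = 0.199) and -0.26 (adjusted p = 0.710), and the last passed (0.61 (adjusted p = 0.0471)). Eng, a co-receptor for TGF-beta family ligands (chr2:32646595-32682669, plus strand), read 41.3 to 78.6 CPM (median 52.3) in FL-HER2 and 27.1 to 55.3 CPM (median 32.7) in p95HER2 at day 10. At day 22 the Eng values were 24.3 to 51.0 CPM (median 39.9) and 35.5 to 56.8 CPM (median 41.2). Apart from p95HER2 replicate 10, at 55.3 CPM, every p95HER2 library of day 10 lay below every FL-HER2 library of that day. Eng changed by -0.75 ± 0.13 (SE, adjusted p = 9.92e-06) between constructs at day 10 and by -0.67 ± 0.13 (SE, adjusted p = 4.28e-05) with time in FL-HER2. The Eng values with the term for name length were -0.34 (adjusted p = 0.305) and -0.26 (adjusted p = 0.404).

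Emcn, a sialomucin of capillary and venous endothelium, was the 1 gene that differed between constructs at day 22. It read 5.41 to 12.4 CPM (median 6.99) in FL-HER2 and 7.69 to 15.3 CPM (median 12.6) in p95HER2, and 6.55 to 13.8 CPM (median 10.5) and 5.77 to 17.0 CPM (median 9.45) at day 10. At day 22 the p95HER2 libraries lay higher with overlap, and the change was 0.63 ± 0.16 (SE, adjusted p = 0.0198). Leaving out FL-HER2 day 22 replicate 1 or replicate 9 took away this call (adjusted p = 0.0516 and 0.0522), as did leaving out the skin-high libraries (0.70, adjusted p = 0.0587). Leaving out other single libraries brought the count at day 22 to 2 (FL-HER2 day 22 replicate 6, p95HER2 day 10 replicate 5 or p95HER2 day 22 replicate 3) or to 3 (p95HER2 day 10 replicate 10), by adding Esam, Icam2 or both. Ecscr, a regulator of endothelial migration, rose with time in both constructs, unlike most of the list. It read 8.56 to 14.5 CPM (median 11.5) in FL-HER2 at day 10 and 9.66 to 21.4 CPM (median 15.8) at day 22. In p95HER2 it read 7.38 to 13.0 CPM (median 10.1) and 12.2 to 19.6 CPM (median 15.4). Its changes were 0.32 ± 0.13 (SE, adjusted p = 0.0324) and 0.48 ± 0.12 (SE, adjusted p = 0.00184), the former lost in 7 of 39 fits that each left out 1 library. Cd93, a lectin-like receptor of vessel growth, fell by 0.60 ± 0.14 between constructs at day 10 (adjusted p = 0.000662). Robo4, which steadies vessels against leak, fell by 0.49 ± 0.14 (adjusted p = 0.00541), but its change was 0.016 in the fit with the term for name length and 0.093 in the libraries of limited muscle content, neither of which passed. Myct1, a membrane protein of endothelium, fell by 0.66 ± 0.16 (adjusted p = 0.00104) and Mmrn2, the matrix ligand of CLEC14A and CD93, had a change of -0.34 ± 0.14 (SE, adjusted p = 0.0552). Under the term for name length the day 10 changes of Cd93 and Myct1 were -0.21 and -0.40, and neither passed.

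Of the secreted proteins, Egfl7, a matrix-bound angiogenic factor, fell by 0.53 ± 0.11 between constructs at day 10 (adjusted p = 0.000238) and by 0.56 ± 0.11 with time in FL-HER2 (adjusted p = 8.19e-05). Neither passed with the term for name length, where the day 10 change was -0.32. Vwf, the clotting factor stored in endothelial granules and platelets, passed in none of the 5 comparisons, with means of 17.9 ± 4.28 and 18.02 ± 4.41 CPM in FL-HER2 and p95HER2 at day 10 and 19.0 ± 4.96 and 20.8 ± 3.45 at day 22 (SD, n = 10, 10, 9 and 10). Its 95% interval between constructs at day 10 was -0.35 to 0.26.

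Of the 5 transcription factors, 4 were lower and 1 higher in p95HER2 at day 10. Erg, the ETS factor that keeps endothelial identity (chr16:95359169-95586593, minus strand), was the 1 gene higher in p95HER2 at day 10. It read 22.7 to 43.9 CPM (median 31.0) in FL-HER2 and 31.6 to 56.5 CPM (median 43.9) in p95HER2 at day 10, and 26.6 to 35.3 CPM (median 30.5) and 28.3 to 37.1 CPM (median 31.4) at day 22. The p95HER2 day 10 libraries lay highest and overlapped the upper FL-HER2 libraries. Erg changed by 0.45 ± 0.09 (SE, adjusted p = 0.000159) between constructs at day 10 and by -0.52 ± 0.09 (SE, adjusted p = 2.06e-05) with time in p95HER2, and kept the sign of both under every other setting run. Within groups Erg followed Cdh5 from library to library (Pearson r = 0.60 over 39 libraries, adjusted permutation p = 5.67e-05; Spearman rho = 0.59, adjusted permutation p = 0.000483). The 3 SoxF factors, which act together in vessel and lymphatic identity, were all lower in p95HER2 at day 10, by 0.68 ± 0.17 for Sox7 (adjusted p = 0.00157), 0.85 ± 0.23 for Sox17 (adjusted p = 0.00356) and 0.79 ± 0.17 for Sox18 (adjusted p = 0.000402). None of the SoxF changes passed with the term for name length, where they were -0.83, -0.52 and -0.29. Lyl1, a basic helix-loop-helix factor of endothelium and blood cells, had the smallest adjusted p of the 35 genes between constructs at day 10. It read 3.59 to 5.38 CPM (median 4.57) in FL-HER2 and 0.979 to 3.90 CPM (median 1.99) in p95HER2 at day 10, and 2.27 to 3.93 CPM (median 2.87) and 1.84 to 3.78 CPM (median 2.35) at day 22. The day 10 groups met only at their edges, and the change was -1.25 ± 0.17 (SE, adjusted p = 2.22e-07). With the term for name length Lyl1 still passed, at -0.97 (adjusted p = 0.0233).

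**Figure D3:**
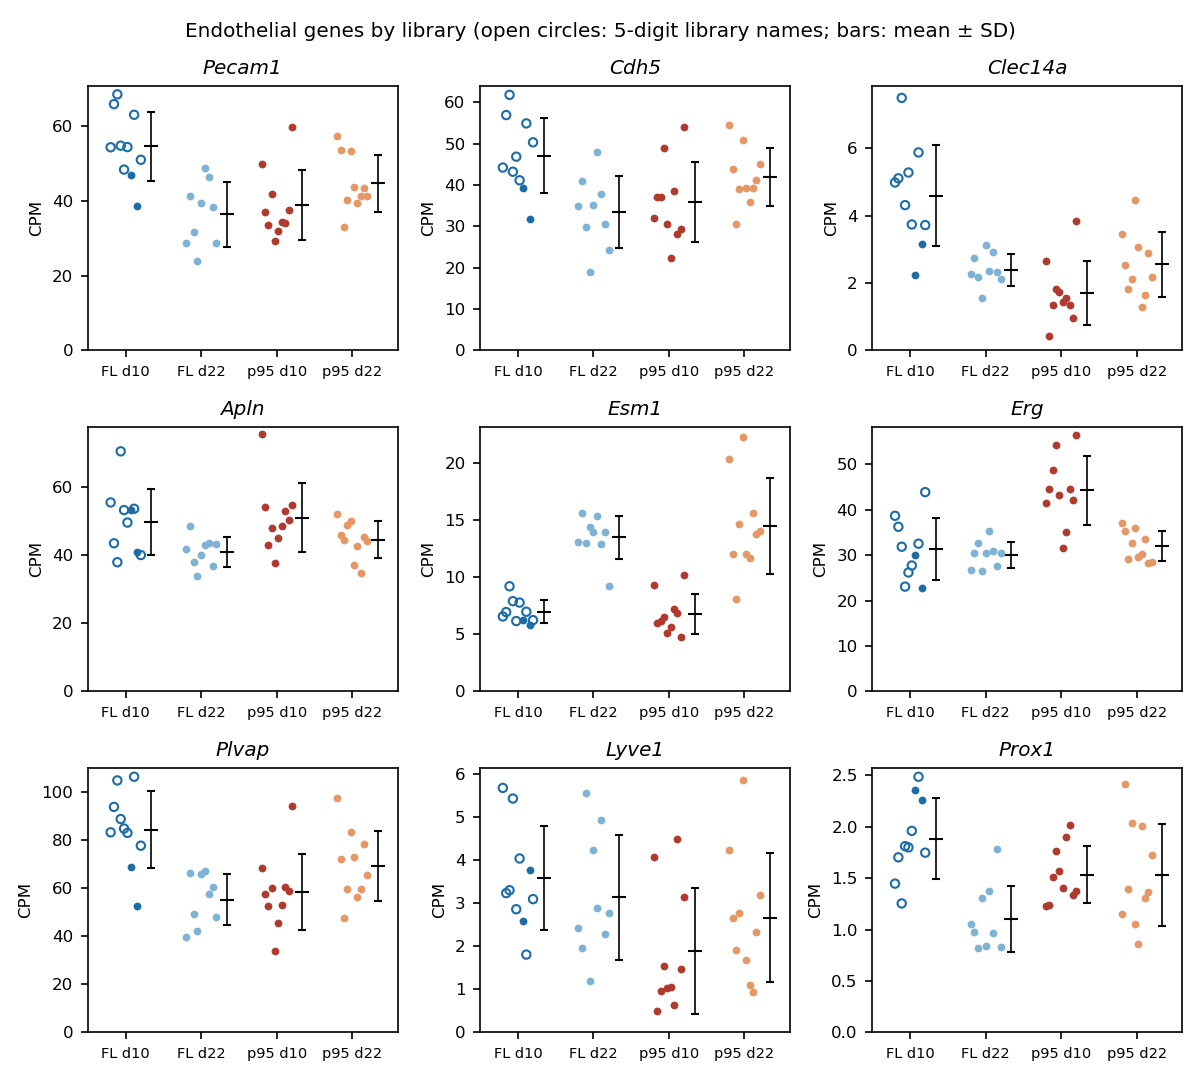
CPM of 9 endothelial genes by library (points) in the 4 groups, with the mean and SD as bars and open circles for libraries with 5-digit names. All but Esm1 and Erg have their highest median in FL-HER2 at day 10, Esm1 is higher at day 22 in both constructs, and Erg is highest in p95HER2 at day 10.

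All 5 receptors were lower in p95HER2 at day 10. Aplnr, the receptor for apelin (chr2:85136225-85139923, plus strand), read 10.4 to 46.3 CPM (median 30.5) in FL-HER2 and 5.77 to 27.7 CPM (median 9.64) in p95HER2 at day 10. At day 22 Aplnr read 5.45 to 17.1 CPM (median 12.3) and 9.37 to 26.6 CPM (median 15.8). FL-HER2 at day 10 spread most, with 10.4 and 15.0 CPM in the 2 libraries with 3-digit numbers and 21.4 to 46.3 CPM in the others. Its changes were -1.33 ± 0.27 (SE, adjusted p = 0.00015) between constructs at day 10, -1.44 ± 0.28 (SE, adjusted p = 4.13e-05) with time in FL-HER2 and 1.97 ± 0.39 (SE, adjusted p = 0.000513) for the change of the construct difference, the largest of the list. With the term for name length the first 2 Aplnr values were -0.22 (adjusted p = 0.798) and -0.33 (adjusted p = 0.631). Ramp2 and Calcrl together form an adrenomedullin receptor. Ramp2 read 5.86 to 11.6 CPM (median 9.30) in FL-HER2 and 2.30 to 10.3 CPM (median 4.46) in p95HER2 at day 10, and 3.75 to 7.22 CPM (median 5.01) and 4.56 to 9.17 CPM (median 6.46) at day 22. FL-HER2 at day 10 was highest with overlap, and the change was -0.96 ± 0.18 (SE, adjusted p = 4.95e-05), or -0.58 (adjusted p = 0.221) with the term for name length. Calcrl fell by 0.65 ± 0.13 in the same comparison (adjusted p = 8.65e-05). S1pr1, the sphingosine-1-phosphate receptor that seals vessels, fell by 0.50 ± 0.13 (adjusted p = 0.00243). Adgrl4, an adhesion receptor of endothelium, fell by 0.52 ± 0.18 (adjusted p = 0.0185) and rose with time in p95HER2 by 0.52 ± 0.18 (adjusted p = 0.0197). Under the term for name length the day 10 changes of Calcrl, S1pr1 and Adgrl4 were -0.39, -0.25 and -0.059, and none passed. Of the signaling genes, Rasip1, which opens the vessel lumen, fell by 0.78 ± 0.16 between constructs at day 10 (adjusted p = 0.000191), but by only 0.22 with the term for name length, where it did not pass. Nos3, the endothelial nitric oxide synthase, had a change of -0.16 ± 0.16 (SE, adjusted p = 0.433) between constructs at day 10 and fell with time in FL-HER2 by 0.47 ± 0.16 (adjusted p = 0.0145).

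The tip-cell markers moved in opposite directions with time, Esm1 up and Apln down in both constructs. Esm1 (chr13:113209659-113218098, plus strand) read 5.85 to 9.20 CPM (median 6.76) in FL-HER2 and 4.74 to 10.2 CPM (median 6.33) in p95HER2 at day 10, and 9.25 to 15.6 CPM (median 13.9) and 8.09 to 22.3 CPM (median 13.9) at day 22. In FL-HER2 every day 22 library was above every day 10 library in CPM, though not in the deposited log2 values. In p95HER2 the days overlapped. From day 10 to day 22 Esm1 rose by 0.83 ± 0.15 in FL-HER2 (adjusted p = 1.07e-05) and by 1.01 ± 0.14 in p95HER2 (adjusted p = 3.23e-07), the largest rise of the list in each. Both calls held under every other setting run, including libraries of limited muscle content (0.95 and 0.78), except that FL-HER2 missed a required log2 change of at least 1. Between constructs the Esm1 change was -0.13 at day 10 (95% interval -0.42 to 0.16) and 0.05 at day 22 (-0.24 to 0.35). Apln (chrX:48025146-48034853, minus strand), which other cells of a tumor also make, read 38.0 to 70.6 CPM (median 51.5) in FL-HER2 and 37.9 to 75.6 CPM (median 49.4) in p95HER2 at day 10. At day 22 Apln read 34.03 to 48.6 CPM (median 41.9) and 34.8 to 52.1 CPM (median 45.0). The groups overlapped, with lower medians at day 22. Apln changed by -0.38 ± 0.10 (SE, adjusted p = 0.00198) with time in FL-HER2 and by -0.25 ± 0.10 (SE, adjusted p = 0.0487) in p95HER2, the latter lost in 26 of 39 fits that each left out 1 library. Its difference between constructs was -0.02 at day 10 with a 95% interval of -0.22 to 0.18.

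Of the capillary markers, Plvap was lower in p95HER2 at day 10, and both fell with time in FL-HER2. Plvap, which bridges the openings of fenestrated capillaries, read 52.4 to 106 CPM (median 84.0) in FL-HER2 and 33.7 to 93.9 CPM (median 58.1) in p95HER2 at day 10. At day 22 Plvap read 39.7 to 67.0 CPM (median 57.6) and 47.7 to 97.6 CPM (median 68.8). FL-HER2 at day 10 lay highest, with overlap. It fell by 0.61 ± 0.14 between constructs at day 10 (adjusted p = 0.000644) and by 0.73 ± 0.14 with time in FL-HER2 (adjusted p = 5.44e-05). With the term for name length these Plvap changes were -0.11 (adjusted p = 0.808) and -0.23 (adjusted p = 0.498). Gpihbp1, which carries lipoprotein lipase into the capillary lumen, read 3.997 to 6.84 CPM (median 5.49) in FL-HER2 and 2.54 to 8.77 CPM (median 5.41) in p95HER2 at day 10. Its day 22 values were 2.89 to 8.54 CPM (median 3.95) and 2.69 to 8.15 CPM (median 5.51). The 4 groups overlapped, and FL-HER2 at day 22 had the lowest median. The Gpihbp1 change was -0.03 ± 0.19 (SE, adjusted p = 0.908) between constructs at day 10 and -0.48 ± 0.19 (SE, adjusted p = 0.0340) with time in FL-HER2, the latter lost in 7 of 39 fits that each left out 1 library.

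Among lymphatic markers, Lyve1 was lower in p95HER2 at day 10 and Prox1 and Pdpn fell with time in FL-HER2. Prox1 read 1.25 to 2.48 CPM (median 1.80) in FL-HER2 and 1.23 to 2.01 CPM (median 1.46) in p95HER2 at day 10, and 0.819 to 1.78 CPM (median 0.972) and 0.858 to 2.42 CPM (median 1.38) at day 22. FL-HER2 at day 22 was lowest with overlap. Its changes were -0.34 ± 0.17 (SE, adjusted p = 0.104) between constructs at day 10 and -0.88 ± 0.17 (SE, adjusted p = 4.61e-05) with time in FL-HER2. Lyve1 read 1.81 to 5.68 CPM (median 3.27) in FL-HER2 and 0.487 to 4.48 CPM (median 1.26) in p95HER2 at day 10, and 1.19 to 5.56 CPM (median 2.77) and 0.928 to 5.87 CPM (median 2.50) at day 22. Each group spread widely and overlapped the others, and the change at day 10 was -1.26 ± 0.34 (SE, adjusted p = 0.00340), or -1.10 (adjusted p = 0.2499) with the term for name length. The macrophage list was lower in p95HER2 at day 10 too, as given above, and its part in the Lyve1 change was not tested. Pdpn read 17.1 to 30 CPM (median 25.6) in FL-HER2 and 16.3 to 25.0 CPM (median 21.6) in p95HER2 at day 10. At day 22 Pdpn read 7.72 to 29.5 CPM (median 13.3) and 12.4 to 21.5 CPM (median 15.7). Of the 9 FL-HER2 day 22 libraries 7 read below every FL-HER2 day 10 library, and the highest lay within the day 10 range. Pdpn changed by -0.91 ± 0.15 (SE, adjusted p = 4.18e-06) with time in FL-HER2 and by -0.41 ± 0.15 (SE, adjusted p = 0.0266) in p95HER2, the latter lost when p95HER2 day 10 replicate 9 or 10 or day 22 replicate 4 or 8 was left out. Fibroblast genes fell with time in both constructs (12 and 9 of 13), and their part in the Pdpn change was not tested.

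Each of the 7 tip-cell, capillary and lymphatic markers was also taken as a log2 difference from Cdh5 in the same library. Such a difference does not depend on library scaling, but Cdh5 is a single reference gene and itself changed between groups, as given above. The 28 differences (7 markers in 4 comparisons) were tested by exact permutation of libraries, two-sided, with Benjamini-Hochberg adjustment over the 28. Esm1 relative to Cdh5 stood at -2.73 ± 0.25 in FL-HER2 at day 10 (SD, n = 10, -3.03 to -2.40) and -1.27 ± 0.36 at day 22 (SD, n = 9, -1.64 to -0.40). In p95HER2 it stood at -2.39 ± 0.35 at day 10 (SD, n = 10, -2.91 to -1.78) and -1.57 ± 0.23 at day 22 (SD, n = 10, -1.91 to -1.19). The days did not overlap in FL-HER2 and overlapped slightly in p95HER2. Esm1 rose relative to Cdh5 by 1.46 (exact permutation test, adjusted p = 0.000606) in FL-HER2 and by 0.82 (exact permutation test, adjusted p = 0.000606) in p95HER2. These were the only 2 of the 28 that passed, and both also passed against Pecam1 in place of Cdh5 (1.55 and 0.86, adjusted p = 0.000303 each). With only FL-HER2 libraries of 3 digits at day 10 (n = 2) the Esm1 difference was 1.27, at the smallest p that design allows (exact permutation p = 0.0364, adjusted p = 0.200).

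Apln relative to Cdh5 was 0.53 ± 0.43 in p95HER2 at day 10 and 0.10 ± 0.22 at day 22 (SD, n = 10 each), a difference of -0.44 (exact permutation test, adjusted p = 0.0765). Against FL-HER2 at day 10, at 0.09 ± 0.44 (SD, n = 10), it differed by 0.45 (exact permutation test, adjusted p = 0.136). With Pecam1 as the reference both Apln differences passed (-0.40, adjusted p = 0.00919, and 0.54, adjusted p = 0.00606, exact permutation test), as did those of Esm1 (0.43, adjusted p = 0.00172) and Gpihbp1 (0.53, adjusted p = 0.0346) between constructs at day 10 and of Pdpn with time in p95HER2 (-0.56, adjusted p = 0.00831). Against Cdh5, Gpihbp1 differed between constructs at day 10 by 0.44 (exact permutation test, adjusted p = 0.154) and Pdpn with time in p95HER2 by -0.60 (exact permutation test, adjusted p = 0.0622). Plvap relative to Cdh5 differed by -0.14, -0.03 and -0.10 between constructs at day 10, between constructs at day 22 and with time in FL-HER2, and 0.01 with time in p95HER2. Prox1 relative to Cdh5 differed by 0.13 (exact permutation test, adjusted p = 0.629) and Lyve1 by -0.79 (exact permutation test, adjusted p = 0.183) between constructs at day 10. Tests that did not pass do not show that the markers kept step with Cdh5.

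**Figure D4:**
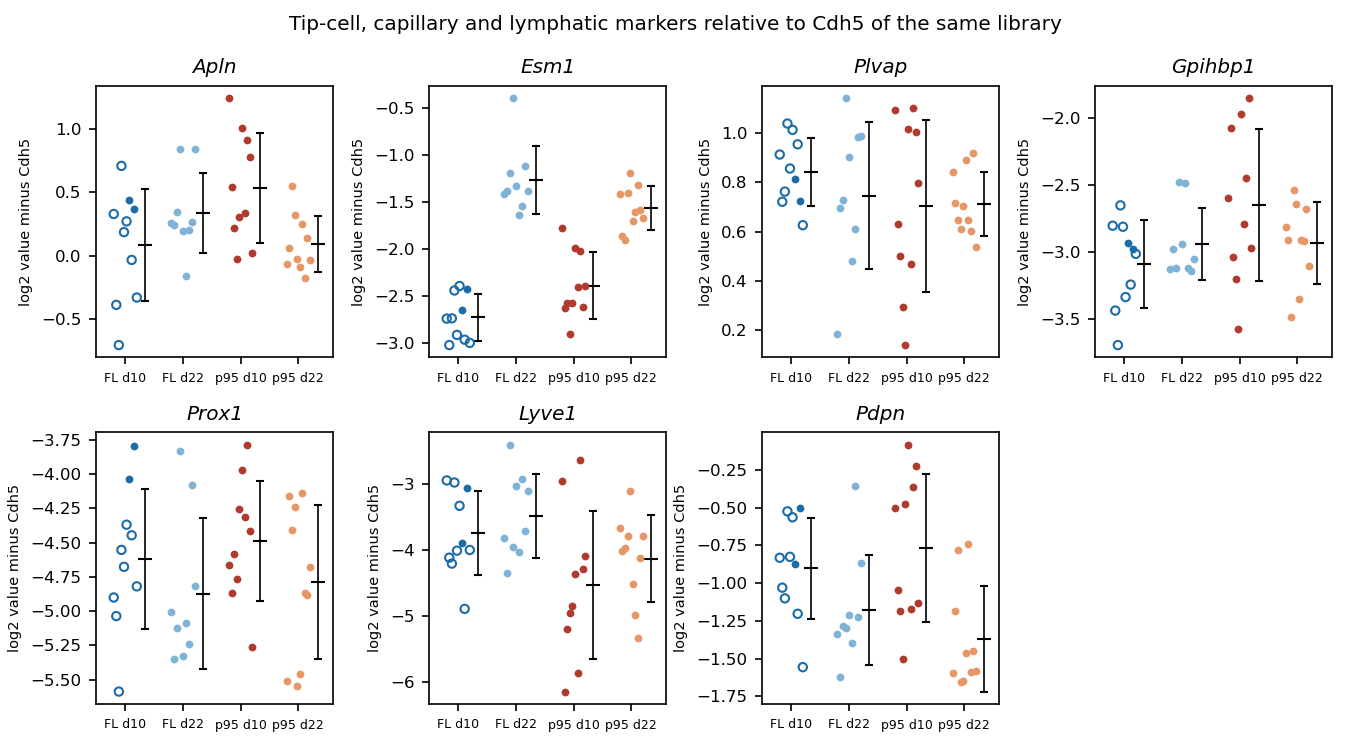
Log2 value of 7 markers minus that of Cdh5 in the same library, by group (points are libraries, bars the mean and SD, open circles 5-digit names). Esm1 is the 1 panel where the days of FL-HER2 do not overlap, and its mean is higher at day 22 in both constructs, going from -2.73 to -1.27 in FL-HER2 and from -2.39 to -1.57 in p95HER2.

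Within groups most of the endothelial genes followed Cdh5 from library to library. For 34 genes the deviations from the group mean, in log2(CPM + 1), were correlated with those of Cdh5 over 39 libraries, with permutation within groups (100000 resamples, two-sided) and adjustment over the 34. Of these, 27 passed by Pearson and by Spearman. The share of all genes that followed Cdh5 in this way was not taken, so the count is not read as particular to the endothelial genes. The closest in pattern were Cd93 (Pearson r = 0.87, Spearman rho = 0.87), Aplnr (0.86 and 0.82), Rasip1 (0.85 and 0.82) and Emcn (0.85 and 0.81), each with an adjusted permutation p of 2.12e-05 for r, the smallest that these resamples gave. Without the 2 libraries farthest from the Cdh5 median their r was 0.88, 0.83, 0.80 and 0.83. Within the 4 groups the r of Cd93 ran from 0.81 in FL-HER2 at day 22 to 0.97 in p95HER2 at day 22. Erg (0.60 and 0.59) and Esm1 (0.56 and 0.52) passed as well, with adjusted permutation p of 5.67e-05 and 0.000233, while Erg was higher in p95HER2 at day 10 and Esm1 rose with time in FL-HER2, where Cdh5 fell. The 7 that did not pass were Icam2 (0.32), Pdpn (0.28), Lyve1 (0.20), Lyl1 (0.18), Apln (0.18), Ecscr (-0.10) and Prox1 (-0.14), which include all 3 lymphatic markers. Without skin-high libraries 27 passed by both (Pdpn by Pearson alone), and 28 did after adjustment for the muscle list, which added Icam2.

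**Figure D5:**
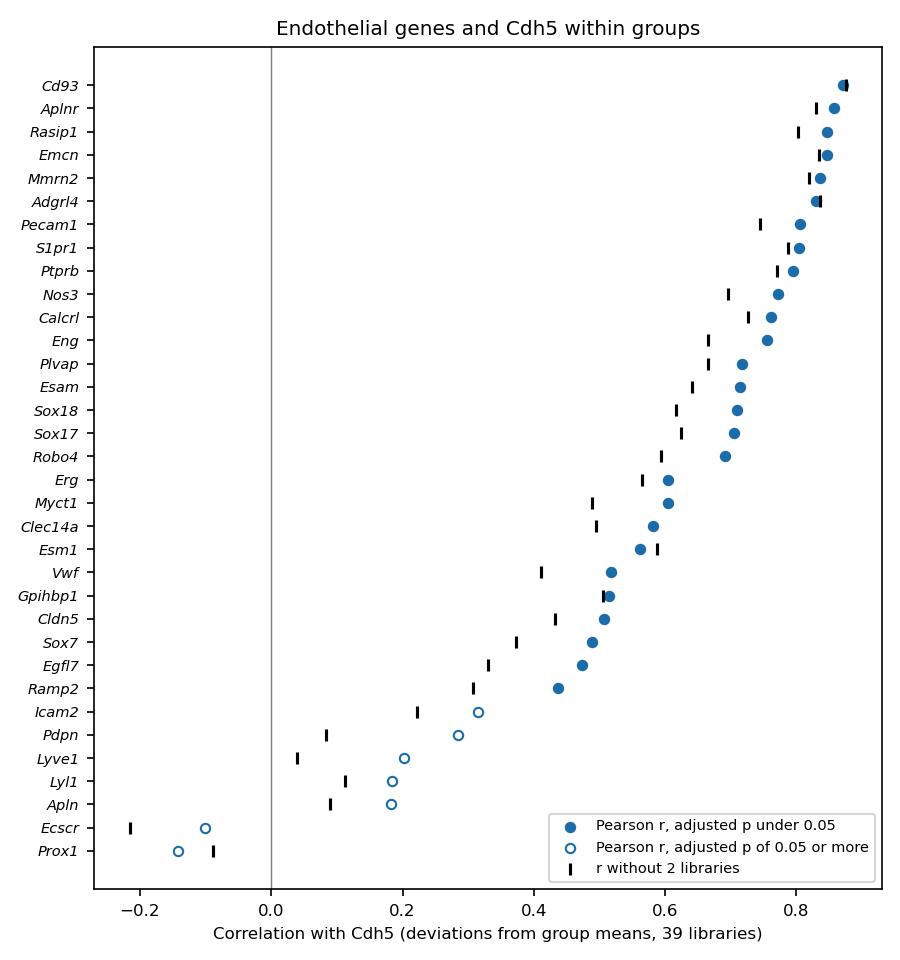
Pearson correlation of each of 34 endothelial genes with Cdh5 over 39 libraries, as deviations from group means (filled: adjusted permutation p under 0.05; open: not), with a tick for the value without the 2 libraries farthest from the Cdh5 median. Cd93 is at the top with 0.87, and Icam2, Pdpn, Lyve1, Lyl1, Apln, Ecscr and Prox1 are the 7 open circles at the bottom.

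Genes outside the list that mark the same vessel classes were read beside the members, from lists written for each class, some of whose genes belong to several. Over all genes, 26.1% were lower and 15.2% higher in p95HER2 at day 10, and 30.6% lower and 20.7% higher with time in FL-HER2. Of 12 further capillary genes, 9 were lower and 1 higher in p95HER2 at day 10, among them Rgcc at -0.93 ± 0.11 (SE, adjusted p = 4.15e-08), Cd36, a fatty acid transporter shared with adipocytes and macrophages, at -2.30 ± 0.28 (SE, adjusted p = 6.12e-08), Lpl, the lipase that GPIHBP1 carries, at -1.75 ± 0.24 (SE, adjusted p = 3.08e-07), and the water channel Aqp1 at -1.30 ± 0.18 (SE, adjusted p = 6.05e-07). With time in FL-HER2, 10 fell and 1 rose, and the 1 that rose, Sparcl1, a matrix protein, did so by 2.73 ± 0.12 (SE, adjusted p = 2.32e-19). The adipocyte list moved with them, with 6 of 10 lower in p95HER2 at day 10, and its part was not tested. Of 17 further tip-cell genes, 4 were higher and 3 lower in p95HER2 at day 10. The laminin chain gene Lamb1 changed by 0.66 ± 0.05 (SE, adjusted p = 2.37e-13), the netrin receptor gene Unc5b by 0.55 ± 0.08 (SE, adjusted p = 1.58e-06), Trp53i11 by 0.40 ± 0.08 (SE, adjusted p = 6.29e-05) and the pericyte growth factor gene Pdgfb by 0.47 ± 0.09 (SE, adjusted p = 0.00014). Between constructs at day 22, 4 of the 17 were higher and 0 lower (median 0.30), beside 2.98% higher and 1.54% lower over all genes. All 17 changes were above 0 there, as were those of 6495 of all 13650 genes. With time in FL-HER2, 3 of the 17 were higher and 8 lower (median -0.26). In p95HER2, 3 were higher and 3 lower with time (median 0.16), beside 16.6% higher and 18.6% lower over all genes. Among these, Cxcr4, the CXCL12 receptor also made by leukocytes and tumor cells, rose by 1.49 ± 0.11 (SE, adjusted p = 1.90e-13), while Pdgfb fell, -0.83 ± 0.09 (SE, adjusted p = 4.68e-09).

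Of 11 further lymphatic genes, 6 were lower and 1 higher in p95HER2 at day 10, beside 26.1% lower and 15.2% higher over all genes. The higher one was Nrp2, a VEGF-C co-receptor that tumor cells can also make, at 0.87 ± 0.09 (SE, adjusted p = 3.74e-09), and it was the 1 lymphatic gene that differed at day 22, at 0.81 ± 0.10 (SE, adjusted p = 1.55e-07). The transcription factor gene Maf was lower at day 10, at -1.20 ± 0.15 (SE, adjusted p = 9.11e-08), as were Reln, at -2.30 ± 0.40 (SE, adjusted p = 2.03e-05), and the transcription factor gene Nfatc1, at -0.58 ± 0.11 (SE, adjusted p = 6.13e-05). Of 10 arterial genes 4 were higher and 4 lower in p95HER2 at day 10, and of 9 venous genes 3 were lower and 0 higher, beside the same shares over all genes. The 3 lower venous genes were the selectin gene Selp at -1.81 ± 0.29 (SE, adjusted p = 5.11e-06), the chemokine receptor gene Ackr1 at -1.81 ± 0.33 (SE, adjusted p = 3.64e-05) and the leukocyte adhesion gene Icam1 at -0.97 ± 0.21 (SE, adjusted p = 0.000267). The arterial genes with the smallest adjusted p there were the Notch ligand gene Jag1, at 0.91 ± 0.12 (SE, adjusted p = 3.14e-07), and Sema3g, at -1.57 ± 0.21 (SE, adjusted p = 4.11e-07). Among 31 other endothelial genes, 19 were lower and 3 higher at day 10, 2 higher and 1 lower at day 22, 16 lower and 4 higher with time in FL-HER2, and 9 higher and 3 lower with time in p95HER2. Their median changes of -0.51, 0.12, -0.41 and 0.22 stood beside -0.53, 0.23, -0.56 and 0.20 for the 35. Over all genes, 2.98% were higher and 1.54% lower at day 22, 30.6% lower and 20.7% higher with time in FL-HER2. With time in p95HER2 the shares were 16.6% higher and 18.6% lower. The angiopoietin receptor gene Tek changed by -1.33 ± 0.21 (SE, adjusted p = 5.98e-06) and the prostaglandin transporter gene Slco2a1 by 1.27 ± 0.08 (SE, adjusted p = 1.90e-15) between constructs at day 10.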

How the data were processed

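Poly(A) RNA of 39 PB2 tumor libraries was sequenced from directional libraries, per the labels' protocols. Reads were aligned with STAR 2.4.2a to mm10 and normalized with DESeq2, per the submitters' processing notes. Neither the read counter nor its annotation and strand setting is named in these sources, and reads of overlapping or antisense genes may be shared. The deposited values are log2(normalized count + 1) with 1 factor per library, and dividing by that factor gave whole reads for 100.0% of values within 0.001 reads. CPM were computed from these reads. Total reads ran from 21772259 to 44427621 per library, which limits the precision of genes at low CPM, and genes needed at least 1 CPM in at least 9 libraries to be tested.

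The main test was limma 3.58.1 (R 4.3.3; a trended prior) on the deposited log2 values of 13650 genes in 39 libraries, with 1 coefficient per group and Benjamini-Hochberg adjustment. It was tested on simulated data with 200 changed genes. Ratios to Cdh5 were tested by exact permutation and correlations by permutation within groups (scipy 1.17.1). Levels are means ± SD and changes ± SE. Alternatives were other scalings, filters and pseudocounts, voom, muscle and name-length terms, subsets of libraries and leaving out each library. Full values were given for 9 fixed genes and, per comparison, up to 4 members of smallest adjusted p. From other lists up to 4 called genes of smallest adjusted p were to be named. In some comparisons fewer were, such as 2 arterial genes and 2 of the 31 other endothelial genes at day 10. Members and lists were chosen with earlier results of these data known. The lower skin limit of 5.9, the ratios without 5-digit libraries, the motifs and the printed promoters were chosen after seeing the data. Sequences are from RefSeq (GRCm38.p6). Of the marker lists, 7 genes were not analysed here. Further list genes failed the filter on low values, and counts of genes called refer to tested genes only. For example, 12 of 16 further capillary genes and 2 of 6 platelet genes were tested.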

Additional observations from a re-analysis of the deposited data

Results flagged for a closer look

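Single libraries stood apart from their own group (a gap to the next library above Dixon's 95% critical value) in 9 of 140 sets of gene and group, where chance gives about 5%. In p95HER2 at day 10, replicate 10 read 55.3 CPM for Eng where the other 9 libraries read 27.1 to 37.9, 2.78 CPM for Sox17 (others 0.726 to 1.496) and 14.4 CPM for Rasip1 (others 5.99 to 8.88). In p95HER2 at day 22, replicate 3 was low, with 29.4 CPM for Cd93 (others 39.9 to 60.1) and 7.39 CPM for Robo4 (others 9.99 to 14.7). In FL-HER2 at day 10, replicate 9 read 3.82 CPM for Nos3 (others 6.66 to 8.67). Apln was high in FL-HER2 day 10 replicate 4, at 70.6 CPM (others 38.0 to 55.6), and in p95HER2 day 10 replicate 1, at 75.6 CPM (others 37.9 to 54.9). Esm1 was low in FL-HER2 day 22 replicate 9, at 9.25 CPM (others 12.9 to 15.6).

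The difference between constructs changed from day 10 to day 22 in 25 of the 35 genes (limma interaction, adjusted p under 0.05), given here as log2 differences, day 22 minus day 10. Among junction genes the change was 0.87 for Pecam1, 0.82 for Cdh5, 1.01 for Esam, 0.93 for Icam2 and 0.92 for Ptprb. Among surface, matrix and secreted proteins it was 0.95 for Eng, 0.81 for Emcn, 1.61 for Clec14a, 0.66 for Cd93, 0.61 for Mmrn2, 0.70 for Robo4, 0.82 for Myct1 and 0.76 for Egfl7. The transcription factor genes gave -0.37 for Erg, 1.31 for Sox17, 1.09 for Sox18 and 0.96 for Lyl1. Receptors and signaling genes gave 0.68 for Calcrl, 1.32 for Ramp2, 0.57 for S1pr1, 1.97 for Aplnr, 0.89 for Adgrl4 and 1.01 for Rasip1. The capillary gene Plvap changed by 0.93 and the lymphatic gene Prox1 by 0.77. None of the 25 passed in the fit with the term for name length or in the libraries of limited muscle content, where 11 and 18 members had an unadjusted p under 0.05.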

How the results depend on the processing

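Counts of members called are given in the order day 10, day 22, time in FL-HER2, time in p95HER2 and change of the construct difference (24, 1, 29, 10 and 25 as reported). They were 2, 1, 5, 12 and 0 with the term for name length, 0, 0, 15, 4 and 0 in libraries of limited muscle content, 4, 0, 4, 1 and 7 with a required log2 change of at least 1, 22, 0, 31, 4 and 23 without skin-high libraries, and 19, 0, 31, 3 and 18 with the lower skin limit chosen after seeing the data. Quantile normalization gave 18, 2, 20, 9 and 17, and fitting only the groups compared gave 25, 2, 27 and 10. Other scalings, filters, pseudocounts, voom and the muscle covariate kept every count within 1.5 times, but log2(CPM + 1) and voom called 12 higher and 3 lower with time in p95HER2 in place of 6 and 4. The groups in the subsets were also smaller, and the cause of the changed counts was not tested. Shares over all genes were given for the main fit only. A lower or higher count under another setting, or with a library left out, is therefore not read as particular to these genes. Leaving out 1 library gave 24 to 26, 0 to 3, 24 to 31, 7 to 18 and 22 to 26. With time, single left-out libraries ended the calls of Robo4 (9 of 39), Myct1 (6) and Calcrl (3) in FL-HER2 and of Myct1 (12) and Calcrl (12) in p95HER2, and those of the changed construct difference for Erg (22), Mmrn2 (9) and S1pr1 (2). Robo4 changed sign between constructs at day 10 in libraries of limited muscle content (0.093) and with the term for name length (0.016), and with time in FL-HER2 with the term for name length (0.14). Of the ratios to Cdh5, 0, 0, 1 and 1 passed in the first 4 comparisons. With Pecam1 as the reference 3 passed at day 10 and 3 with time in p95HER2. In libraries of limited muscle content 0 passed with time in FL-HER2 and 0 in p95HER2, where the Esm1 differences were 1.55 (exact permutation p = 0.0121, the smallest that 3 against 8 libraries allow) and 0.56 (exact permutation p = 0.0190), each with an adjusted p of 0.108. Without skin-high libraries 2 passed with time in FL-HER2 (2 with the lower limit), and without 5-digit libraries 0. The scaling to CPM moved the median of all genes with time in FL-HER2 from -0.03 to 0.08. No paired analysis was possible because the replicate numbers follow the order of deposit and pair no samples. Depth limits the genes near 1 CPM, such as Prox1.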
